A study of Mus musculus with 96 samples.

Results

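The interval of mouse chromosome 4 from 63 to 88 Mb (genome build NCBIM37, mm9) was described here as a distant target of 12 chromosome conformation capture (4C) viewpoints that lie in and around band 4E2, near the other end of the same chromosome. Its members were all HindIII restriction fragments whose last base falls from position 63000001 to 88000000, which gave 8614 of the 48320 HindIII fragments of the chromosome. The fragments were also grouped in 50 consecutive steps of 500 kb. The label of the interval as gene-poor held in the annotation: 63 protein-coding genes have their midpoint in its 25 Mb, or 2.52 per Mb, against 10.0 per Mb over the rest of the chromosome from 3 Mb onwards (1282 genes). Its closest boundary lies 60.0 to 67.6 Mb from the viewpoints on the intact chromosome, so no contact described below is a near one.

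The study asked how an engineered deletion of 4.3 Mb in 4E2 changes the folding of the chromosome that carries it. Cells were mouse embryonic fibroblasts (MEFs) at passage 4, grown to confluence from 13.5-day embryos. The study derived deletion-carrying embryos from Df/Dp male chimeras crossed with C57BL6/J females, and named F1 +129/+Bl6 crosses as the source of its controls. Lines 129S5E71 and 129S5E98 (E71 and E98) carried the deleted chromosome, Df, of 129S5SvEvBrd origin and an intact C57BL/6J chromosome, named +DBl6 when it shares a cell with Df. Lines 129S5E117 and 129S5E118 (E117 and E118) carried 2 intact chromosomes, +129 and +Bl6. A base that differs between the strains in the viewpoint read assigned each read pair to 1 of the 2 chromosomes of a cell. Each line, chromosome and viewpoint gave 1 library, hence 2 libraries per group, 1 from each of 2 lines, and chromosomes of the same line came from the same ligated DNA. All 12 viewpoints exist on +129, +Bl6 and +DBl6, whereas on Df only viewpoints 1, 2, 11 and 12 (147.9, 148.9, 154.9 and 155.5 Mb) lie outside the deletion. Of the 96 libraries, the 80 from a viewpoint present on its chromosome were used. Whether the lines stand for separate embryos was not stated in the labels, so that the spread given below is the spread between lines, and a pair of lines limits each genotype. No expression was measured in these files, so the cell type could not be checked against markers.

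In a 4C experiment, chromatin is crosslinked, cut and ligated, and inverse PCR from a chosen viewpoint amplifies whatever fragments were joined to it, so that the reads list the places that the viewpoint touched. The frequency of contacts falls steeply with genomic distance, and over such long distances a nucleus contributes at most 1 ligation partner to any small region. At such range chromatin is known to associate by type: gene-rich, active segments tend to touch other active segments, and gene-poor, AT-rich segments tend to lie apart from them at the nuclear periphery or around nucleoli. Band 4E2 is gene-rich, which makes a long gene-poor stretch of the same chromosome a natural counterpart.

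The capture of distant chromatin is sparse, and the fragments that recurred most often are shown as sequence so that the unit of measurement can be seen. Of the 8614 fragments, 2462 were captured in no library of the +129 and +Bl6 chromosomes, 5142 in 1 to 5 of these 48 control libraries and 1010 in at least 6 of them. The 5 fragments below were captured in the most control libraries, and each is given by its first or last 30 bases, read 5′ to 3′ into the fragment from the HindIII site, which is in capitals. These ends are what a 4C read of that fragment contains, and each of them occurs once among all HindIII ends of the genome (NCBIM37 sequence).
Fragment 67.06 Mb, left end, forward strand, chr4:67056270-67056299: AAGCTTttgtgctctatagaaatactcaac
Fragment 67.06 Mb, right end, reverse strand, chr4:67061444-67061473: AAGCTTggttgtgcaatatttctttagtat
Fragment 67.01 Mb, left end, forward strand, chr4:67014881-67014910: AAGCTTaagtttgaaaagaaaaaaattatt
Fragment 67.01 Mb, right end, reverse strand, chr4:67016392-67016421: AAGCTTtagaacaaaagaaatttgttctaa
Fragment 67.09 Mb, left end, forward strand, chr4:67093367-67093396: AAGCTTttcaatttcccctgtgcagatgtg
Fragment 67.09 Mb, right end, reverse strand, chr4:67096004-67096033: AAGCTTtttcttcaaagacttgatatatct
Fragment 64.91 Mb, left end, forward strand, chr4:64909219-64909248: AAGCTTccatgaaaacgtcaggacttctgg
Fragment 64.91 Mb, right end, reverse strand, chr4:64909890-64909919: AAGCTTggtctcatgactgtaaatgctagc
Fragment 82.95 Mb, left end, forward strand, chr4:82948193-82948222: AAGCTTcattctgatgagctgcattctatt
Fragment 82.95 Mb, right end, reverse strand, chr4:82949517-82949546: AAGCTTttcttgagagcgacacctggtggt

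The fragment at 67.06 Mb is 5198 bp long and was captured in 29 of 48 control libraries, but it held a median of 2 reads where it was captured and reached 5 reads in 3 libraries only. The fragment at 67.01 Mb (1535 bp) was captured in 25 control libraries with a median of 1 read. The fragment at 67.09 Mb (2661 bp) was captured in 17, again with a median of 1 read. All of them lie between protein-coding genes, 424 to 502 kb from Tlr4, the receptor for bacterial lipopolysaccharide and the nearest protein-coding gene. The other pair behaved differently in read number. The fragment at 64.91 Mb (695 bp), in an intron of Pappa, a secreted metalloproteinase that cleaves insulin-like growth factor binding proteins, was captured in 17 control libraries with a median of 9 reads and a maximum of 112. The fragment at 82.95 Mb (1348 bp), in an intron of Ttc39b, was also captured in 17 control libraries, with a median of 14 reads and a maximum of 259. On the chromosomes of the deletion-carrying lines, the fragment at 67.06 Mb was captured in 13 of 24 +DBl6 and 2 of 8 Df libraries, and the Pappa fragment in 1 of 24 and 1 of 8. Hence frequent capture and high read number were separate properties of these fragments, and each library below was scored first by the number of fragments with at least 1 read, called captured fragments, and then by reads.

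Across the 80 libraries, total reads ranged from 444 to 3969613, and from 64058 upwards without the pair of libraries of viewpoint 10 in line E117. The interval held 5 to 736 captured fragments per library (median 388.5) and 0.602 to 4.13% of the reads outside the 20 kb around the viewpoint. A single fragment took 1.20 to 35.5% of the reads of the interval, and 23.7 to 100% of its captured fragments (median 32.2%) rested on 1 read. Reads are PCR products without molecular identifiers, so that a read number is not a number of molecules, and any precision from counts covers counting error only. The deletion was visible in the libraries labelled Df, where 0.0737 to 0.361% of the reads outside the 20 kb around the viewpoint came from 150.5 to 154 Mb. All libraries of +129, +Bl6 and +DBl6 at the same viewpoints held more (0.741 to 9.87%). The 0.741% belonged to +129 in E117 at viewpoint 11, where the other libraries of these chromosomes held 3.21 to 4.07%. In 6 replicate pairs (+DBl6 at viewpoints 4, 6, 7 and 8, +129 and +Bl6 at viewpoint 9), the E71 and E98 or E117 and E118 libraries had many captured fragments in common. They shared 56.7 to 79.8% of those of the smaller library in the interval, against 3.97 to 18.1% in 32 other replicate pairs. Reads were near-equal in the 6 pairs (r = 0.935 to 0.971 across shared fragments on log reads). The 2 pairs with the shallow E117 libraries of viewpoint 10 were left out of that range and shared 0 and 22.2%. Each such pair was added up and counted as 1 library in values per viewpoint.

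The interval was captured less often than the rest of the distant chromosome, on every chromosome and in each of the lines. A relative level was computed per library as the captured share of the fragments of the interval divided by the captured share of all other fragments over 20 Mb from the viewpoint. It ranged from 0.387 to 0.942 with a median of 0.646, and lay below 1 in 80 of 80 libraries. Averaged over viewpoints, the relative level on +129 was 0.668 in E117 and 0.644 in E118, and on +Bl6 it was 0.635 and 0.632. On +DBl6 it was 0.573 in E71 and 0.622 in E98, and on Df, at its 4 viewpoints, 0.503 and 0.604. Added-up pairs do not enter these averages, which hold 11 viewpoints for +129 and +Bl6 but 8 for +DBl6. The E117 averages include its shallow viewpoint 10 libraries, at 0.941 on +129 and 0.847 on +Bl6. The pairs left out on +DBl6 gave 0.716, 0.860, 0.987 and 0.807 at viewpoints 4, 6, 7 and 8, and with every library as labelled +DBl6 averaged 0.634 in E71 and 0.652 in E98, next to 0.636 and 0.632 on +Bl6. Over the 4 lines, each averaged over its chromosomes, the log2 relative level was -0.72 ± 0.13 (SD, n = 4 lines), with all lines below 0 (exact two-sided sign-flip permutation test, p = 0.125, the smallest p that 4 lines allow).

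Reads gave a lower relative level than captured fragments. Reads per fragment in the interval, divided by reads per fragment over the rest, ranged from 0.262 to 1.03 (median 0.488) and lay below 1 in 79 of 80 libraries. With 5 reads required for capture the relative level was 0.286 to 0.704 in the 78 libraries that allowed it, below 1 in 78 of 78. In each library, 32 to 49 of the 50 steps (median 42) were captured less often than the rest.

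**Figure D1:**
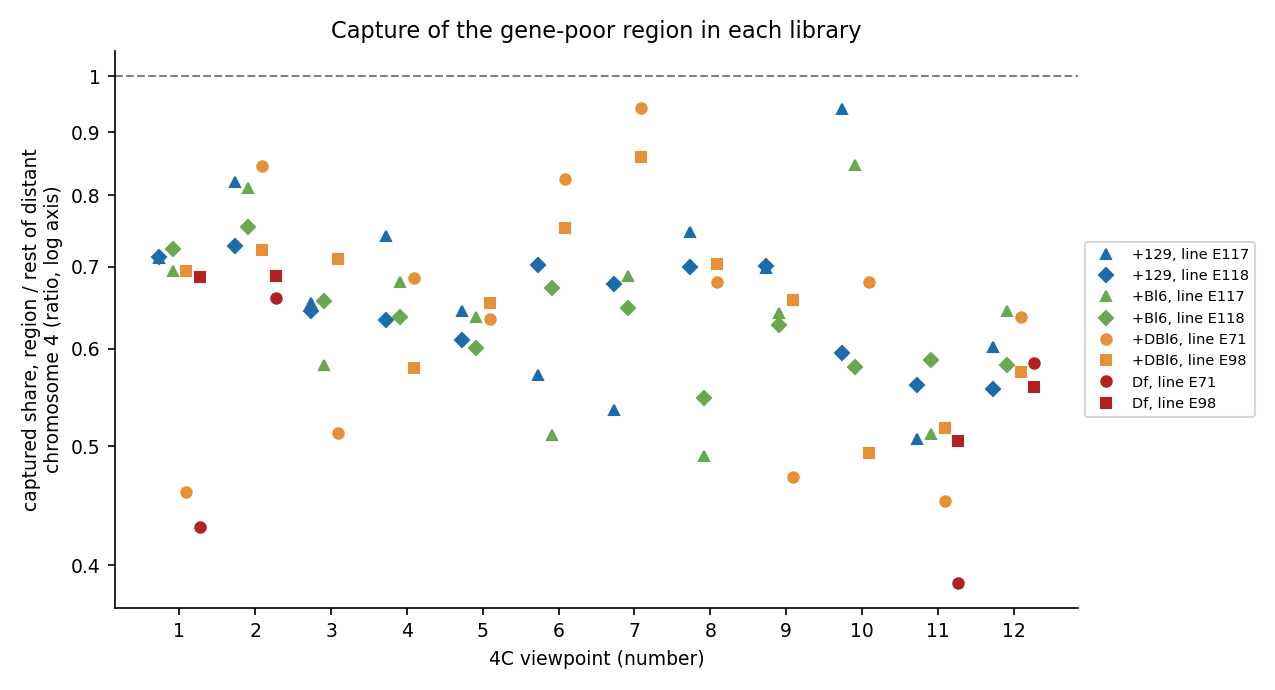
Relative level of the 63 to 88 Mb interval (captured share of its fragments over that of the rest of the distant chromosome, log axis) for each viewpoint from 1 to 12. Each of the 80 libraries is 1 point, with colours for +129, +Bl6, +DBl6 and Df. All points lie below 1, from 0.387 to 0.942, and line E71 gave the lowest points at viewpoints 1 and 11.

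The depletion depended on what it was set against, since the chromosome-wide level is raised by gene-rich segments closer to the viewpoints. The captured share of the interval on +129 was 4.96 ± 1.55% (SD, n = 2 lines), compared with 2.52 ± 0.709% from 3 to 40 Mb, 5.24 ± 1.68% from 40 to 58 Mb, 8.06 ± 2.86% from 90 to 105 Mb and 14.6 ± 4.82% from 105 to 120 Mb. Set against 3 to 40 Mb, which is also gene-poor (3.27 protein-coding genes per Mb) but farther from the viewpoints, the interval was captured 2.04 times as often, and it was lower in 0 of 80 libraries (lines E71, E98, E117 and E118 gave 1.99, 1.97, 2.20 and 2.00, exact sign-flip p = 0.125). Set against 40 to 58 Mb, which is gene-rich (11.7 per Mb) and also farther away, it was captured 0.905 times as often. There the lines differed in direction: 0.804 in E71, 0.796 in E98, 1.13 in E117 and 0.930 in E118 (exact sign-flip p = 0.375). With at least 5 reads per fragment the same ratio was 0.760 and below 1 in all 4 lines (exact sign-flip p = 0.125). Set against 90 to 105 Mb, nearer to the viewpoints and with 5.33 genes per Mb, it was captured 0.676 times as often and was lower in 74 of 80 libraries, and in 78 of 78 with at least 5 reads. When the rest was limited to 3 to 105 Mb, the relative level of the interval over the 4 lines was 1.09, so that the level below 1 rests on the segments beyond 105 Mb. Distance and gene content differ together between these segments, and their parts in the ratios cannot be told apart here.

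Within the interval the captured share was uneven, and the same steps were high or low on each chromosome. Averaged over the control lines and chromosomes (+129 and +Bl6 in E117 and E118), the relative level of the 50 steps ran from 0.34 to 1.10 with a median of 0.61, and 45 of 50 steps lay below 1. Elsewhere up to 127.5 Mb, 67.3% of 199 steps lay below 1 and the median was 0.64, while the highest step reached 4.04. The lowest step elsewhere was 0.0039, so that the steps of the interval had the narrower range at both ends. With at least 5 reads per fragment the median step was 0.47 in the interval and 0.56 elsewhere, and on Df, with 1 read, 0.44 and 0.52. Between any pair of the 4 chromosomes, Pearson's r of the 50 step levels was 0.80 to 0.95, a description over steps that share fragment size, base composition and mappability, and for chromosomes of 1 line also the ligated DNA.

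The 5 highest steps, named as a description with no test, all lie beyond 82.5 Mb. They were 82.5 to 83 Mb with 1.10 ± 0.11 (SD over the 4 control values), which holds Zdhhc21, Cer1, Frem1 and Ttc39b, then 86 to 86.5 Mb with 1.05, 83 to 83.5 Mb with 1.03, 87.5 to 88 Mb with 1.02 and 83.5 to 84 Mb with 1.02. Cer1 encodes a secreted antagonist of Nodal and BMP signalling and Frem1 an extracellular matrix protein. The step at 86 Mb holds 6 genes, among them Adamtsl1, Rraga, Haus6 and Plin2, and that at 83.5 Mb holds part of Bnc2, a zinc finger protein gene. The neighbours in this order do not differ beyond their spread. The 5 lowest steps were 78 to 78.5 Mb with 0.34, 77.5 to 78 Mb with 0.35, 78.5 to 79 Mb with 0.36, 70.5 to 71 Mb with 0.37 and 74.5 to 75 Mb with 0.39. Among them, 3 hold no protein-coding gene, 77.5 to 78 Mb holds the start of Ptprd, and 74.5 to 75 Mb holds 3110001D03Rik.

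**Figure D2:**
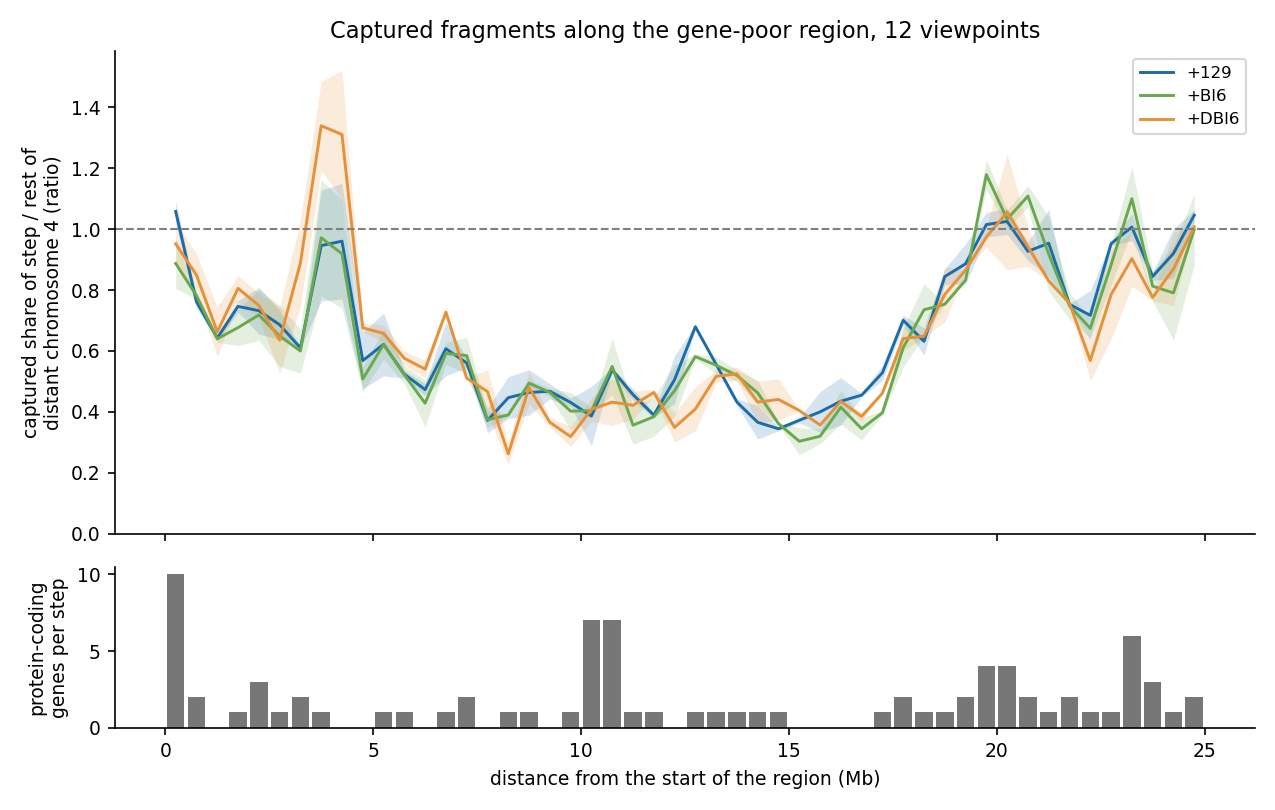
Relative level of captured fragments in each 500 kb step (upper panel, ratio, averaged over viewpoints and lines) for +129, +Bl6 and +DBl6. The lower panel gives the number of protein-coding genes per step, and both panels are against the distance from the start of the interval in Mb. The profiles share a low middle, with +129 at 0.48 between 4.5 and 17.5 Mb from the start, and a high end beyond it.

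Read by position, the profile had a middle trough, with limits chosen after the profile was seen. On +129 the relative level was 0.789 ± 0.0836 from 63 to 67.5 Mb, 0.476 ± 0.00744 from 67.5 to 80.5 Mb and 0.881 ± 0.00492 from 80.5 to 88 Mb (SD, n = 2 lines). The same 3 values were 0.758, 0.453 and 0.876 on +Bl6, 0.907, 0.462 and 0.823 on +DBl6, and 0.813, 0.343 and 0.767 on Df. The middle was the lowest of the 3 in 65 of 80 libraries, in 61 with at least 5 reads per fragment and in 61 on reads per fragment. Of the 15 exceptions 12 came from viewpoints 6 to 8, where the middle was the lowest in 6 of 18 libraries, and at viewpoint 7 it was so in 0 of 6. At viewpoint 7 the control libraries averaged 4.00, 3.86 and 3.73% in the first, middle and last block, but the lines differed. In E118 the shares did not fall (5.57, 6.20 and 6.38% on +129). They fell from the first to the last block in E117 (1.94, 1.18 and 0.934% on +129). On +DBl6 they also fell (4.98, 2.27 and 1.52% in E71, 6.02, 3.45 and 2.26% in E98). All 8 Df libraries had the lowest value in the middle, as did all 24 libraries of the other chromosomes at the same 4 viewpoints. With at least 5 reads the order of the outer blocks changed on 2 chromosomes: the values became 0.580, 0.375 and 0.762 on +DBl6 and 0.621, 0.277 and 0.751 on Df, with 0.591, 0.386 and 0.855 on +129. The middle also has the fewest genes, 1.77 protein-coding genes per Mb against 3.33 on either side, and a GC content of 38.1% against 39.9% and 41.1%. Of its fragments, 93.1% have an end that is unique in the genome, against 95.9% and 97.4% on either side and 91.9% over the rest up to 127.5 Mb. In the middle 27.6% were never captured in any library, against 16.8% and 13.7%, a share that low capture itself also raises. With only fragments of a unique end, the relative level of the whole interval on +129 was 0.636 in place of 0.656.

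Steps with genes were captured more often than steps without. In the interval, the 11 steps that hold no protein-coding gene had a median relative level of 0.45, the 35 steps with 1 to 4 genes 0.67 and the 4 steps with at least 5 genes 0.76. The corresponding medians over the rest up to 127.5 Mb were 0.29, 0.49 and 1.10. Across the 50 steps the level rose with GC content (Pearson's r = 0.72, Spearman's rho = 0.74), with the share of fragments with a unique end (r = 0.58, rho = 0.65) and less with the number of protein-coding genes (r = 0.39, rho = 0.52). These are descriptions over neighbouring steps, which are not independent, and GC content, mappability and genes vary together.

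Fragments inside genes were captured more often than fragments between genes, and this held in every line. Of the 8614 fragments, 3160 overlap a protein-coding gene and 5454 do not. On +129 in E117, 4.57% of genic and 3.45% of intergenic fragments were captured, and in E118 7.14 and 5.43%. On Df the shares were 1.69 and 1.56% in E71 and 5.25 and 3.87% in E98. The ratio of genic to intergenic capture was 1.16 in E71, 1.30 in E98, 1.37 in E117 and 1.31 in E118, with a mean of 1.28 (exact two-sided sign-flip permutation test over the lines, p = 0.125, the smallest possible). With at least 5 reads per fragment it was 1.45, and E71 gave 1.38. The overlap with genes alone did not set the interval apart, since 36.7% of its fragments and 38.6% of the other fragments up to 127.5 Mb are genic: its few genes are long.

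Of the genes followed by name, 26 of 27 were captured above the mean of the interval, where the mean relative level over the control values was 0.64. This is near the background of the interval itself, in which 35 of the 38 protein-coding genes with at least 5 fragments lay above that mean (median 0.89), as did 45 of all 62 genes that lie wholly inside it (median 0.78). The exception was Ptprd, a receptor tyrosine phosphatase of synapse formation, whose 802 fragments over 2271 kb had a relative level of 0.50. Against the rest of the distant chromosome, 16 of the 27 lay below 1, beside 42 of those 62 genes and 24 of the 38.

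Grouped by role, the 5 genes of neural adhesion and synapses were all below 1, with a median of 0.77. They were Ptprd at 0.50, Astn2, which guides migrating neurons, at 0.69, Brinp1 (annotated as Dbc1) at 0.77, Slc24a2 and Sh3gl2. Of the 4 extracellular matrix and secreted genes 3 lay below 1, with a median of 0.83. Tnc, which encodes tenascin-C, a matrix protein of fibroblasts and of wound repair, was the one at 1.03. The 3 centrosome genes spread widely, from Cntln at 0.65 and Cdk5rap2 at 0.78 to Haus6, a subunit of the augmin complex, at 1.61. The 6 transcription and chromatin genes had a median of 1.04. In this group, Nfib, a transcription factor of lung and brain development, and Kdm4c, a histone demethylase, were both at 0.90 to 0.91, Bnc2 was at 1.03, and Psip1, which encodes the chromatin-tethering protein LEDGF, reached 1.63 with 1.37 to 1.93 in the 4 control values. The 4 innate immunity genes had a median of 1.06 and ran from 0.72 to 1.43. The 5 remaining genes ran from 0.78 to 1.49, and 2 of them, Rps6 and Trim32, have 3 fragments each, too few to place them. The highest values were those of Psip1 and Haus6, short genes with 12 and 13 fragments, and the megabase-long Ptprd and Astn2 were among the lowest. Short genes lay on both sides, since Tnfsf8, also with 12 fragments, was at 0.72.

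The steps around 67 Mb stood out in a different way: they were captured often but with few reads. With at least 1 read, the relative level on the control chromosomes was 0.96 at 66.5 to 67 Mb and 0.94 at 67 to 67.5 Mb, among the 8 highest of the 50 steps, although the second of them holds no protein-coding gene. With at least 5 reads the same steps gave 0.40 and 0.35. On +DBl6 the 1-read values were 1.34 and 1.31. From 66 to 68 Mb, 61.0% of 2940 captures rested on 1 read and the median was 1 read, against 29.1% and a median of 4 reads over the rest of the interval. Among the 244 distant steps of the chromosome with enough captures, the 6 steps from 66 to 69 Mb had the 6 highest shares of captures with 1 read, 43.7 to 66.6%, and the next step anywhere had 40.4%.

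The captured share from 66 to 68 Mb was 5.43% with at least 1 read, above the 4.24% of the 2 Mb on either side, but 1.29% with at least 5 reads, below the 1.88% of the flanks. It was above the flanks in 55 of 80 libraries (15 of 16 in E71, 9 of 16 in E98, 18 of 24 in E117 and 13 of 24 in E118), and in 16 of 80 with at least 5 reads. By chromosome it was above them in 15 of 24 libraries of +129, 16 of 24 of +Bl6, 20 of 24 of +DBl6 and 4 of 8 of Df. In windows of 250 kb, a width chosen after the values were seen, the share of fragments with 1 to 4 reads rose to 6.16% at 66.75 Mb and 7.05% at 67 Mb and fell to 4.37% and 3.50% in the following 2 windows. At 67 Mb the 4 lines gave 5.69% (E71), 8.30% (E98), 7.09% (E117) and 7.09% (E118). Of the 148 fragments captured in at least 10 control libraries, 26 lie from 66 to 68 Mb, 17.6% of them against 7.86% of all fragments of the interval. The 3 fragments near 67 Mb printed above belong to this group. At viewpoints 1, 2, 11 and 12 the level at 67 to 67.5 Mb was 1.12 on +129 and 0.977 on +Bl6 in E117, and 1.05 on +DBl6 and 1.27 on Df in E71. It was 0.703 and 0.594 on +129 and +Bl6 in E118, and 0.663 and 0.855 on +DBl6 and Df in E98. The lines purified with the High Pure kit (E117 and E71) were thus above the AMPure lines (E118 and E98) on each chromosome, and they also held fewer captured fragments. The part of purification or of depth in this was not tested.

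**Figure D3:**
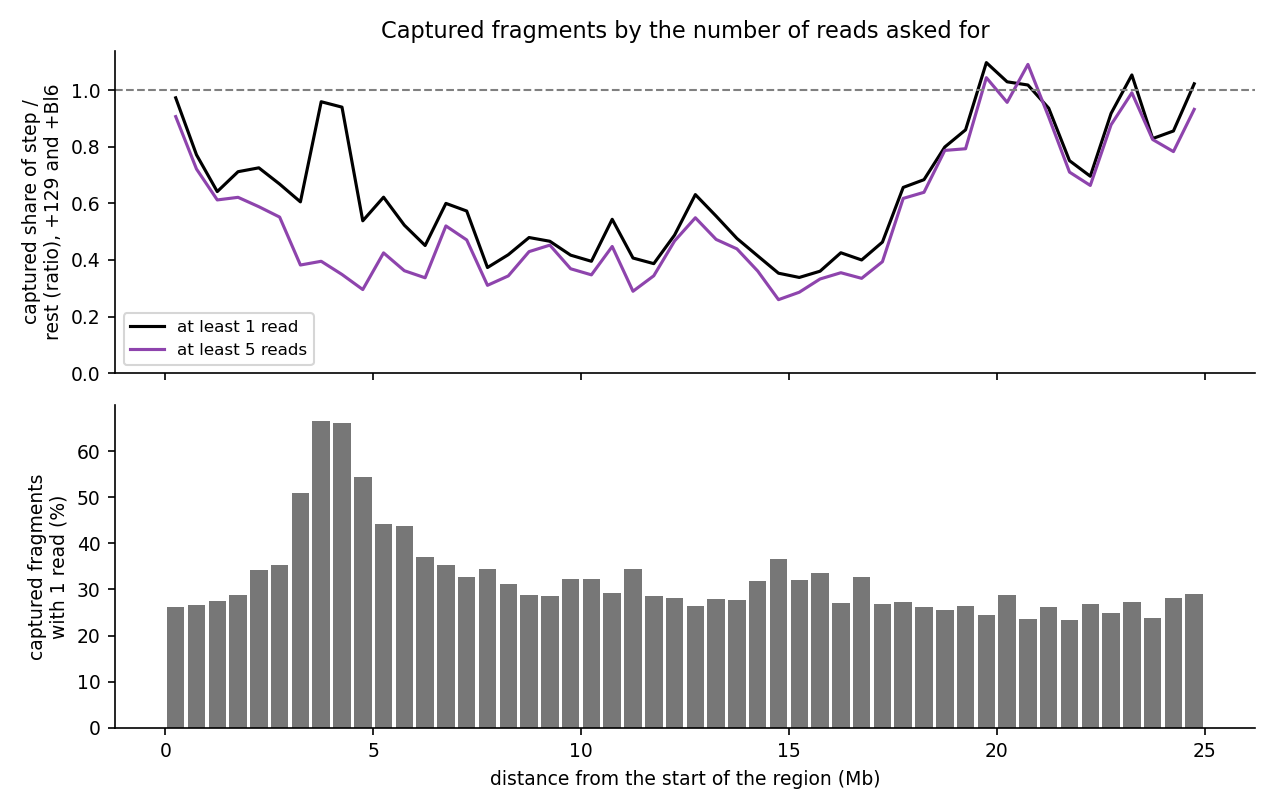
Relative level of each 500 kb step on the control chromosomes (upper panel, ratio) with at least 1 read and with at least 5 reads per captured fragment, and the share of captured fragments with 1 read (lower panel, percent), against the distance from the start of the interval in Mb. The curves part near 4 Mb from the start, where the levels of 0.96 and 0.94 fall to 0.40 and 0.35.

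The first comparison of the design sets the deleted chromosome against the intact one of the same strain. The relative level of the interval was lower on Df than on +129 at the 4 shared viewpoints: -0.99 (log2) in E71 and -0.73 in E98, against -0.62 in E117 and -0.66 in E118. The lines did not overlap, and the difference was -0.22, or 0.859-fold. With 2 lines on each side, the exact permutation test gave p = 0.333, the smallest p this design allows (0.926 adjusted over the 25 tests of this kind). Line E71 carried most of the difference. Within the High Pure lines it was -0.37, within the AMPure lines -0.070, and the difference without E71 or without E98 was -0.087 and -0.35. E71 libraries were also the sparsest, with a median of 172 captured fragments in the interval, against 368.5 in E98, 356 in E117 and 535 in E118. The part of this sparseness in the difference was not tested. At viewpoint 11 the libraries were not separate measurements either: the Df library of E71 had 54.8% of its captured fragments of the interval in common with the +129 library of E117, which is another cell line (r = 0.707 across shared fragments on log reads). Without viewpoints 10 and 11 the difference was -0.20, or 0.869-fold (exact permutation p = 0.333). A lower level at the 4 shared viewpoints was not particular to Df. There the intact +DBl6 of the same cells gave -0.79 (E71) and -0.69 (E98), against -0.61 (E117) and -0.61 (E118) on +Bl6.

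By viewpoint, Df was lower than +129 at all 4, and the libraries did not overlap at 3. At viewpoint 1 the relative levels were 0.430 (E71) and 0.686 (E98) on Df, against 0.711 (E117) and 0.713 (E118) on +129. At viewpoint 2 they were 0.660 and 0.688 against 0.820 and 0.727. Both viewpoints lie on the near side of the deletion, and E98 alone differed little at the first. Beyond the deletion, viewpoint 11 gave 0.387 and 0.505 on Df against 0.506 and 0.560 on +129. The 0.506 came from the E117 library that shared fragments with the Df library of E71. Viewpoint 12 gave 0.584 and 0.558 on Df against 0.602 and 0.557 on +129.

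Step by step, the mean of the Df lines lay below that of the +129 lines in 36 of 50 steps, against 59.8% of the 249 distant steps of the chromosome. Both Df lines lay below both +129 lines in 14 of 50 steps, or 28%, against 19.7% of all steps, and above both in 6, or 12%, against 12.9%. In the quasi-likelihood test of edgeR on reads summed over the 4 viewpoints, 0 of 50 steps differed (0% of the 246 steps tested were called, 0 of 50 had an unadjusted p under 0.05, and DESeq2 called 0). On captured fragments edgeR again called 0 of 50 (0% of 244, 0 at an unadjusted p under 0.05, 0 by DESeq2), with a median log2 change over the steps of -0.10 against 0.01 over all steps. With 1 fit per viewpoint, edgeR called 0 of 184 steps (0% of 885, 7 at an unadjusted p under 0.05, 0 by DESeq2). Without E98, edgeR called 2 steps as lower on the summed reads, in a fit where the lone Df line is assumed to vary like the other groups.

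**Figure D4:**
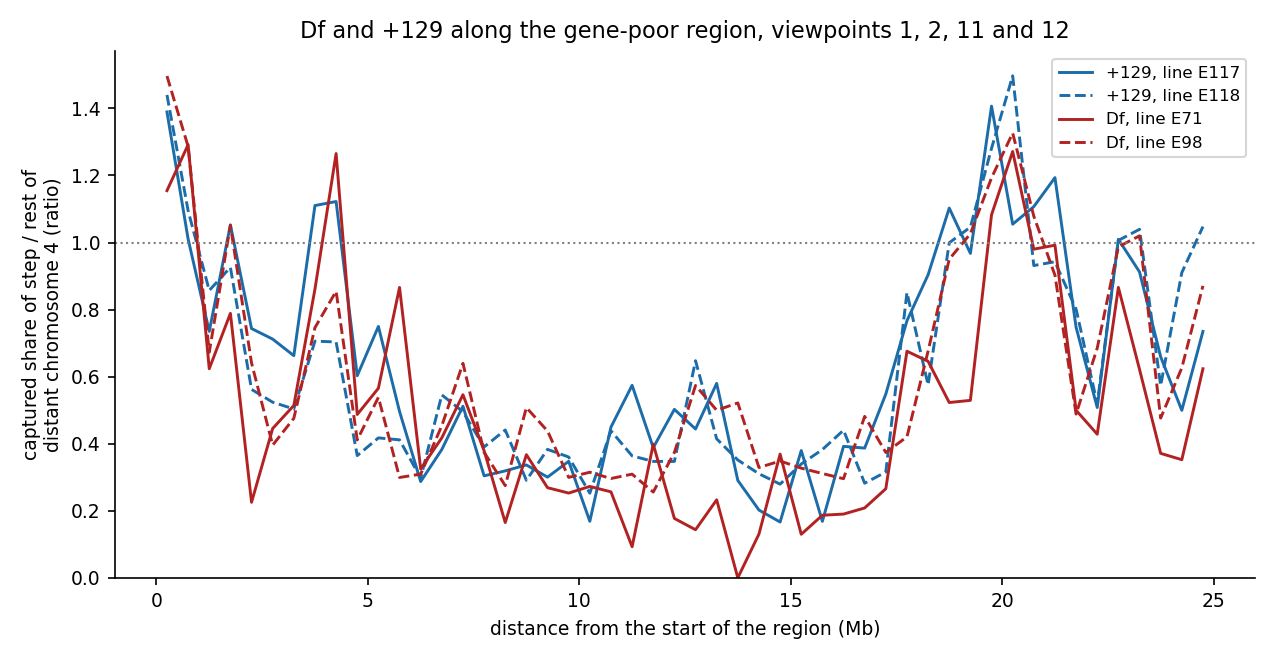
Relative level of captured fragments in each 500 kb step at viewpoints 1, 2, 11 and 12 (ratio) against the distance from the start of the interval in Mb, with 1 line for each of +129 in E117 and E118 and Df in E71 and E98. The Df mean lies below the +129 mean in 36 of 50 steps, and the ranges of the lines overlap in most steps.

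The second comparison sets the intact C57BL/6J chromosome of the deletion-carrying cells against the same chromosome of control cells. Over the 7 viewpoints without an added-up pair, the log2 relative level on +DBl6 was -0.76 (E71) and -0.70 (E98). On +Bl6 it was -0.59 (E117) and -0.65 (E118). The E117 mean includes its viewpoint 10 library, with 1255 reads and 9 captured fragments in the interval, at -0.24. The difference was -0.11, or 0.926-fold, with no overlap of the lines (exact permutation p = 0.333, adjusted p = 0.926). It was lower at 6 of 7 viewpoints but the libraries did not separate at any of them. It was -0.18 within the High Pure lines and -0.046 within the AMPure lines, and with all libraries taken as labelled, the added-up pairs included, it turned to 0.021. Libraries of different lines also had fragments in common: 53.3% of those of +DBl6 in E71 were captured on +Bl6 in E117 at viewpoint 11 (r = 0.724), and 52.8% of those of +DBl6 in E98 on +Bl6 in E118 at viewpoint 10 (r = 0.552). Without viewpoints 10 and 11 the difference was -0.064, or 0.956-fold, and the lines overlapped (exact permutation p = 0.667).

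On reads, 4 of 50 steps were called higher on +DBl6 than on +Bl6 by edgeR (11.0% of all 246 steps tested were called), so that the share in the interval was near the background. The most significant was 81.5 to 82 Mb, which overlaps Nfib, with a log2 change of 2.24 (SE 0.30, edgeR adjusted p = 3.24e-11). It rested on 1 fragment, chr4:81672206-81673056, which took 80.0% of the +DBl6 reads of the step and held 14209 reads in E71 and 13100 in E98, all from viewpoint 7. The step at 73 to 73.5 Mb, which holds Rasef and predicted genes, had a log2 change of 2.26 (SE 0.43, edgeR adjusted p = 4.31e-06), with 90.9% of its reads on 1 fragment of viewpoint 7. The step at 76.5 to 77 Mb in Ptprd had 1.95 (SE 0.43, edgeR adjusted p = 0.000121), with 56.9% on 1 fragment, also mainly of viewpoint 7. DESeq2 called 10 steps, 8 of them higher and 2 lower on +DBl6. Viewpoint 7 is one of those at which the E71 and E98 libraries of +DBl6 shared captured fragments with near-equal reads, so they were not treated as independent. In the interval they shared 58.7% of the captured fragments of E71 and 41.8% of those of E98. Without the viewpoints of such pairs edgeR called 0 of 50 steps. On captured fragments the log2 changes of the 4 steps were -0.027 to 0.14 (edgeR adjusted p = 0.811 to 0.985), and edgeR called 0 of 50 steps in all (0% of 246, 4 at an unadjusted p under 0.05, 0 by DESeq2). The median log2 change of captured fragments over the 50 steps was 0.11 on the 12 viewpoints, against 0.012 over all steps, and 0.025 without the viewpoints of such pairs, so its direction was not that of the relative level over 7 viewpoints. With 1 fit per viewpoint, 1 of 566 steps was called by edgeR (0.152% of 2639), again 81.5 to 82 Mb at viewpoint 7, where +DBl6 is 1 added-up library and the other chromosomes supplied the spread. In the same fits DESeq2 called 23, of which 6 were higher and 17 lower.

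The 2 intact chromosomes of the control cells, which differ by strain, were close to each other. The log2 relative level was -0.58 (E117) and -0.63 (E118) on +129, against -0.65 and -0.66 on +Bl6, a difference of 0.050 over 11 viewpoints (exact permutation p = 0.333, adjusted p = 0.926). This test took the values as unpaired, although both chromosomes of a line share their ligated DNA. Within E117 the difference was 0.073 and within E118 0.027. The E117 means again include viewpoint 10, with 444 reads on +129 and 1255 on +Bl6. At viewpoint 8 the libraries separated most, 0.746 and 0.699 on +129 against 0.490 and 0.547 on +Bl6. On reads edgeR called 0 of 50 steps (2.85% of 246, 1 at an unadjusted p under 0.05, 0 by DESeq2), and on captured fragments 0 of 50 (0.813% of 246, 0 at an unadjusted p under 0.05, 0 by DESeq2). With 1 fit per viewpoint edgeR called 0 of 566 steps (0% of 2639, 13 at an unadjusted p under 0.05), and DESeq2 called 1.

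The test of the difference between the change on Df and the change on +DBl6 gave no called step. By edgeR it was 0 of 50 on reads (0% of 246, 0 at an unadjusted p under 0.05, 0 by DESeq2), 0 of 50 on captured fragments (0% of 244, 0 at an unadjusted p under 0.05, 0 by DESeq2) and 0 of 184 per viewpoint (0% of 885, 3 at an unadjusted p under 0.05, 0 by DESeq2). A step with a smaller change than the spread between these lines was not detectable at this depth.

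The chromosomes of 1 cell line were not fully separate measurements of the interval. In 31 pairs of libraries of the same line and viewpoint, 1.08 to 58.1% of the captured fragments of the smaller library (median 40.2%) were also captured on the other chromosome, against a median of 9.91% between replicate lines. Of these shared fragments, a median of 71.8% differed at least 10-fold in reads, and the log reads of shared fragments were mostly negatively related (r = -0.59 to 0.12). When a fragment counted on a chromosome only with over 10% of the reads of both, 43 in place of 45 steps of the control chromosomes lay below 1.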

How the data were processed

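Paired-end 4C sequencing (PE-4Cseq) was carried out on MEFs with 2% formaldehyde, HindIII and DpnII. The deposited files hold read counts per HindIII fragment of chromosome 4, which the authors made by assigning read pairs to an allele through a base in the viewpoint read, trimming the other read to 30 bases and aligning it with Bowtie (version not given in the sources used here) to the sequence beside HindIII sites of NCBI37/mm9, allowing 3 mismatches and keeping unique matches. The counts are raw. Because alignment kept unique matches, repeated ends are missing from capture. Tables of the authors' comparisons, which list the start and end of differing regions, were not used, and columns of other samples numbered 0.

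Fragment positions were checked against the HindIII sites of the mm9 sequence, and all matched. Genes came from the GENCODE annotation of that build and were placed in steps by position. A fragment with at least 1 read was called captured, and reads within 20 kb of a viewpoint were left out. Replicates whose shared fragments correlated above 0.9 on log reads (at least 30 shared) were added up. Steps of 500 kb up to 127.5 Mb, with at least 10 reads (or 5 captured fragments) in 50% of the libraries, entered the quasi-likelihood fits of edgeR 4.0.16 under R 4.3.3 (TMM scaling, p-values adjusted over all steps by Benjamini-Hochberg, threshold 0.05), with DESeq2 1.42.0 as an alternative. Line sums entered as replicates, and fits per viewpoint left out the E117 libraries of viewpoint 10, which had under 1000 reads in the steps up to 127.5 Mb. Exact permutation tests over lines used Python 3.11.15 and numpy 2.4.6. The scripts were tested on simulated data.

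The members, gene lists and rules were chosen with earlier results of these data known. Steps named were the 5 highest and 5 lowest by control level and at most 3 called per comparison, fragments the most often captured in control libraries, 4 by rule, with 1 more tied. Alternatives were another capture limit, distance limit, denominator, normalization, filter, batch (purification kit) and replicate handling, and leaving out each line. Unique ends, the allele filter, the limits of the rest to 3 to 105 Mb or to 40 Mb and beyond, and the fits without some viewpoints were chosen after seeing the data.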

Additional observations from a re-analysis of the deposited data

Results flagged for a closer look

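Viewpoints 3 to 10 lie inside the deletion and do not exist on Df, yet libraries labelled Df hold reads there. These 16 libraries, used in no comparison above, had 845 to 31156 reads and captured 4 to 114 fragments of the 63 to 88 Mb interval (median 29), above the limit of 3 counts in all 16, while 0 to 9 fragments (median 0) reached 5 reads. The highest read number came from viewpoint 10 in E98, with 31156 reads, 37.5% of those of its +DBl6 library, and 9 fragments at 5 reads. The 15 other libraries had up to 12381 reads, 0.0442 to 0.636% of those of their +DBl6 libraries, and 0 to 3 fragments at 5 reads. Of the captured fragments, 21.7 to 100% (median 60.2%) were also captured in the +DBl6 library of the same line and viewpoint.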

How the results depend on the processing

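The level of the interval over the 4 lines stayed below that of the rest under every alternative but 1: its log2 value ranged from -1.23 to 0.12, and without each line in turn from -0.75 to -0.66. With the rest limited to 3 to 105 Mb it turned to 0.12 (ratio 1.09), on +129 to 0.23, on +Bl6 to 0.19 and on +DBl6 to 0.14, while on Df it was -0.066. These values follow from leaving out the segments beyond 105 Mb. The difference between +DBl6 and +Bl6 turned to 0.021 with all libraries as labelled.

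On summed reads, the 4 steps called for +DBl6 against +Bl6 became 10 with DESeq2 (8 higher, 2 lower) and 0 without the viewpoints with added-up pairs. Total counts moved the median log2 change of all steps there from -0.078 to -0.31 and called 3. Leaving out each line in turn gave 0 to 2 called steps for Df against +129 (2 without E98), 3 to 6 for +DBl6 against +Bl6 and 0 to 1 for the difference of both changes (1 without E98). On captured fragments of +DBl6 against +Bl6 it gave 0 to 3 (3 without E98 and 3 without E117). With 1 fit per viewpoint, the single call for +DBl6 against +Bl6 became 23 with DESeq2, and 0 with total counts, without the filter or with all libraries as labelled. With the purification kit as a block it was 0 of 284 steps, at 6 viewpoints that do not include viewpoint 7. Without each line in turn it was 0 to 3 (3 without E98, 0 without E117 or E118, where viewpoint 7 could not be fitted), and it was 0 to 1 for Df against +129 and 0 to 2 for the difference of both changes. For +129 against +Bl6 DESeq2 called 1. The causes of these changes were not tested.

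The replicate numbers are the lines, and they pair +129 with +Bl6 and Df with +DBl6 because both chromosomes of a line came from the same cells. With the line as a replicate block, edgeR called 0 steps of the interval for +129 against +Bl6 and 0 for the difference of both changes. Depth differed between lines: E71 had the fewest captured fragments of the interval (median 172 per library) and E117 the fewest reads (median 336478), and its part in these values was not tested.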
